A study of Mus musculus with 6 samples.

Results

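Genes that mark hepatic stellate cells at rest or after activation were followed in mouse liver lacking Vps15, the regulatory subunit of class 3 PI3K. The 10 genes, Lrat, Reln, Hand2, Des, Pdgfra, Pdgfrb, Acta2, Tagln, Lox and Loxl2, were taken by name from the 56305 genes of the deposited table. RNA was sequenced from 3 WT livers and 3 Vps15LKO livers, 1 library per liver, from males aged 5 weeks with free access to food, killed at ZT6 (ZT, Zeitgeber time, hours after lights on). Vps15LKO mice are AlbCre+;Vps15f/f, so that Cre, driven by the promoter of albumin, a hepatocyte protein, deletes Vps15 in hepatocytes. The labels call the controls WT and give no allele for them, and the numbers 1 to 3 in each genotype name different mice.

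Stellate cells lie between hepatocytes and the sinusoidal endothelium and store vitamin A as retinyl esters in lipid droplets. When the liver is injured they can lose these droplets, divide in response to platelet-derived growth factor (PDGF), assemble a contractile actin cytoskeleton and lay down collagen that lysyl oxidases cross-link. Lrat, Reln and Hand2 mark the resting cell. Des, Pdgfra and Pdgfrb mark stellate cells and related mesenchymal cells, while Acta2, Tagln, Lox and Loxl2 mark the activated, myofibroblast-like state.

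All 10 genes rose in Vps15LKO liver, and none fell. The smallest rise was that of Lrat, with a log2 fold change of 0.56, and the largest was that of Lox, with 4.54. The 3 markers of the resting cell rose by 0.56 to 0.97, Des by 1.46, the PDGF receptors and the contractile genes by 2.22 to 2.35, and the lysyl oxidases by 3.02 and 4.54, all on the log2 scale. The values are normalized counts, the reads of a gene divided by 1 DESeq2 size factor per library, and the fold changes are Vps15LKO minus WT on log2(normalized count + 1), compared with limma and adjusted by Benjamini-Hochberg over all tested genes. Calls needed an adjusted p below 0.05 together with a change of 1.2-fold or more. Of the 15430 genes tested, 33.5% were called higher and 33.0% lower in Vps15LKO liver. In each of the 10 genes every Vps15LKO liver lay above every WT liver, which held for 36.4% of all tested genes. For Lox this was fixed in advance, since it was tested only because all 3 Vps15LKO livers, and no WT liver, reached 20 normalized counts. With 3 livers against 3, an exact permutation test over the livers cannot give a two-sided p under 0.1, and it gave 0.1 for each of the 10. In whole liver, more stellate cells and more RNA per stellate cell cannot be told apart.

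**Figure D1:**
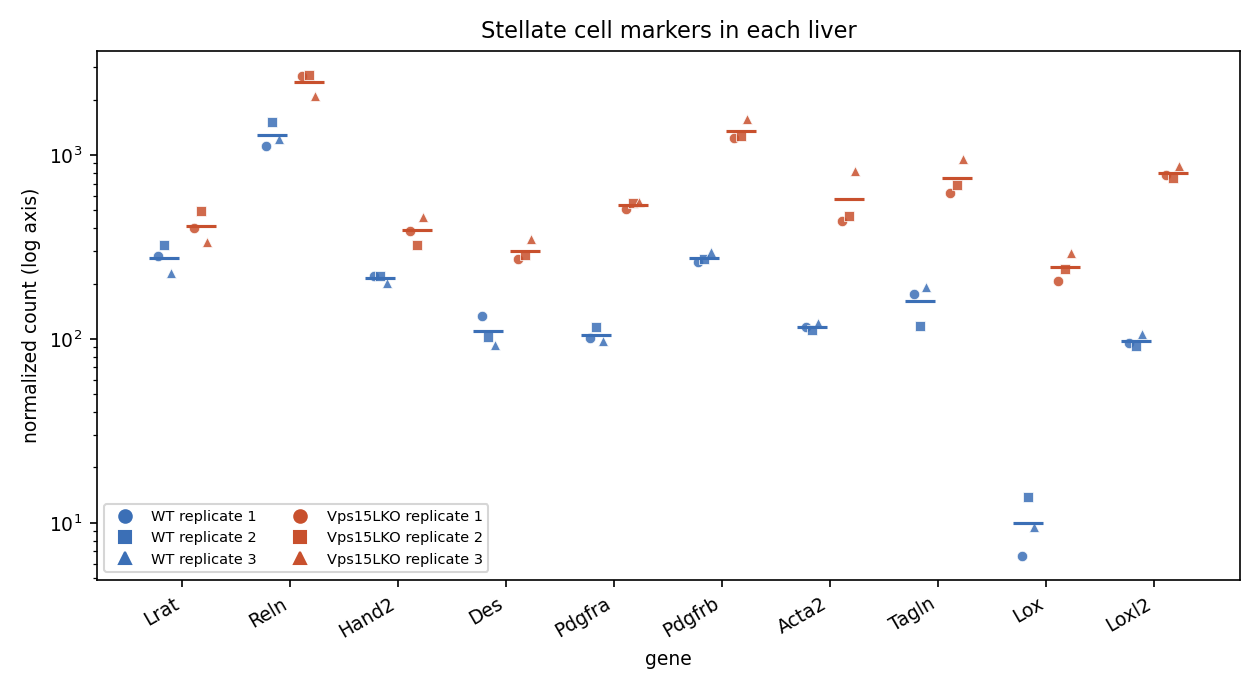
Normalized counts (log axis) of the 10 stellate cell markers in each liver, WT in blue and Vps15LKO in red, with circles, squares and triangles for replicates 1, 2 and 3 and a bar at the mean of each genotype (n = 3). The genotypes are closest for Lrat, where the highest WT liver is at 322 and the lowest Vps15LKO liver at 335, and farthest apart for Lox, at 9.94 and 247 on average.

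The libraries held 16137093 to 18110223 reads on genes, but the size factors were 0.742 to 0.801 in WT and 1.23 to 1.41 in Vps15LKO livers, so that 1 read stood for 1.25 to 1.35 and for 0.707 to 0.810 normalized counts. Scaled to equal totals of reads instead, the median log2 fold change of all genes moved from −0.02 to 0.70, 66.7% of genes were called higher, and the 10 markers had log2 fold changes of 1.29 to 5.23, all called. Quantile normalization gave 0.50 to 3.80 with the same 10 called higher. Pik3r4, which encodes Vps15, had 508, 573 and 459.7 normalized counts in WT livers and 341, 362 and 355 in Vps15LKO livers. Its log2 fold change was −0.54 (SE 0.11, adjusted p = 0.00207), and 0.19 at equal totals of reads. For fibroblasts, the paper reports that the recombined locus still makes a truncated Vps15 protein. Counts over the whole gene therefore do not measure how complete the deletion was.

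Lrat encodes lecithin retinol acyltransferase, the enzyme that makes retinyl esters, and lies on chromosome 3 from 82892579 to 82903973 on the minus strand of GRCm38. It was counted at 281, 322 and 228 in WT livers and at 402, 494 and 335 in Vps15LKO livers. The genotypes did not overlap, but the gap between them was small beside the spread within each. The means were 277 ± 47.4 and 411 ± 79.8 (SD, n = 3), a log2 fold change of 0.56 (SE 0.17, adjusted p = 0.0188). The adjusted p rose above 0.05 when WT replicate 3 was left out (log2 fold change 0.43, adjusted p = 0.0544), when Vps15LKO replicate 1 was (0.57, 0.0516) and when Vps15LKO replicate 2 was (0.42, 0.0618).

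Reln encodes Reelin, a large secreted glycoprotein known best for the placement of neurons, which stellate cells also make. It lies on chromosome 5 from 21884454 to 22344702 on the minus strand and was counted at 1118, 1504 and 1228 in WT livers and at 2679, 2731 and 2102 in Vps15LKO livers. The lowest Vps15LKO liver, replicate 3, was above the highest WT liver. From 1283 ± 199 to 2504 ± 349, the log2 fold change was 0.97 (SE 0.14, adjusted p = 0.000398).

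A stretch of the Reln promoter is shown because, among the 6 of the 10 genes with an entry in the RefSeq promoter table of GRCm38.p6 (Lrat, Reln, Hand2, Des, Pdgfra and Acta2), it is the window that holds the E-box CACGTG, the motif that the circadian activators Clock and Bmal1 are known to bind. It covers bases −101 to −36 from the start site on the minus strand, at chr5:22344741-22344806, with the motif in capitals:
Reln: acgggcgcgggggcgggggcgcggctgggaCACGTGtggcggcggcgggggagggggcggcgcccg
The E-box was found on bases −71 to −66. Of 32851 promoters of the same length, 250 bases before to 50 after the start, 7.15% held this motif. On both strands, the 6 windows were also searched for the TEAD motif GGAATG, found in Lrat (−208 to −203) and Acta2 (−146 to −141) and in 14.7% of all promoters, and for the AP-1 motif TGANTCA and the CArG box, both found in none of the 6 and in 7.81% and 1.63% of all promoters. A match in a window says only that these letters stand there. The Acta2 window lies for the most part inside the Acta2 gene as GENCODE annotates it, in sequence annotated as transcribed.

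Hand2, a helix-loop-helix transcription factor of mesenchyme and a marker of the stellate cell lineage, lies on chromosome 8 from 57320983 to 57324633 on the plus strand. It was counted at 220.1, 219.8 and 202 in WT livers and at 384, 323 and 462 in Vps15LKO livers. The WT livers lay close together and the Vps15LKO livers were spread over a wider range above them. The mean rose from 214 ± 10.3 to 389 ± 69.8, with a log2 fold change of 0.85 (SE 0.14, adjusted p = 0.000731). Hand2os1, a transcript of the opposite strand that shares 461 bases (19.6%) of the Hand2 exons, had 133, 122 and 155 in WT livers and 236, 186 and 271 in Vps15LKO livers. Whether the counting used strand is not given in the sources used here, so reads of both genes in the shared bases cannot be told apart.

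Des encodes desmin, the muscle-type intermediate filament of stellate cells, pericytes and smooth muscle, on the plus strand of chromosome 1 from 75360329 to 75368579. Its normalized counts were 134, 102 and 93.0 in WT livers and 271, 288 and 349 in Vps15LKO livers. The lowest Vps15LKO liver had more than the highest WT liver. The means were 110 ± 21.4 and 302 ± 40.9, with a log2 fold change of 1.46 (SE 0.17, adjusted p = 9.17e-05).

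Pdgfra and Pdgfrb encode the 2 PDGF receptor chains, of which the beta chain carries much of the growth response of activated stellate cells, while the alpha chain is also found on fibroblasts around the portal vein. Pdgfra, on the plus strand of chromosome 5 from 75152292 to 75198215, had 101, 116 and 97.1 normalized counts in WT livers and 509, 550.2 and 555 in Vps15LKO livers. Pdgfrb, on the plus strand of chromosome 18 from 61045150 to 61085061, had 261, 274 and 295 in WT livers and 1235, 1274 and 1563 in Vps15LKO livers. Both were far apart between the genotypes and even within them. The mean of Pdgfra went from 105 ± 10.1 to 538 ± 25.4 (log2 fold change 2.35, SE 0.11, adjusted p = 1.26e-06). That of Pdgfrb went from 277 ± 17.2 to 1357 ± 179 (2.28, SE 0.11, adjusted p = 1.43e-06).

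Acta2 encodes the smooth muscle form of alpha-actin, the classical marker of the activated stellate cell and of vascular smooth muscle, on the minus strand of chromosome 19 from 34241090 to 34255590. It had 117, 111 and 121 normalized counts in WT livers and 438, 464 and 820.4 in Vps15LKO livers. The WT livers were almost equal, while the highest Vps15LKO liver, replicate 3, had 1.87 times the lowest. The means were 116 ± 5.08 and 574 ± 214, a log2 fold change of 2.23 (SE 0.22, adjusted p = 4.24e-05), and without Vps15LKO replicate 3 the log2 fold change was 1.95.

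Tagln encodes transgelin, an actin-binding protein of smooth muscle, on the minus strand of chromosome 9 from 45929619 to 45936058. It was counted at 175, 117 and 193 in WT livers and at 621, 689 and 948 in Vps15LKO livers. As for Acta2, replicate 3 was the highest Vps15LKO liver. The rise from 162 ± 39.4 to 752 ± 173 was a log2 fold change of 2.22 (SE 0.21, adjusted p = 3.75e-05). The antisense gene Gm48529 shares 1241 bases (62.4%) of the Tagln exons and had nearly the same values, 166, 134 and 199.5 in WT livers and 612, 683 and 929 in Vps15LKO livers. With no strand setting given, the 2 genes cannot be told apart.

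Lox and Loxl2 encode secreted lysyl oxidases, the enzymes that start the cross-links of collagen and elastin. Lox, on the minus strand of chromosome 18 from 52516067 to 52529867, had 6.63, 13.7 and 9.44 normalized counts in WT livers, from 5, 11 and 7 reads. In Vps15LKO livers it had 207, 241 and 293, from 271, 298 and 414 reads. Lox was therefore near the limit of these libraries in WT liver and passed the filter on low values, at least 20 normalized counts in at least 3 livers, through the Vps15LKO livers alone, so that it had to differ to be tested. Its log2 fold change was 4.54 (SE 0.27, adjusted p = 3.30e-06), a value that depends on the pseudocount of 1 and was 3.69 at a pseudocount of 10. The other 9 markers had at least 20 in all 6 livers.

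Loxl2, on the plus strand of chromosome 14 from 69609068 to 69695834, had 95.5, 91.2 and 106 normalized counts in WT livers. In Vps15LKO livers it had 784, 746 and 872. The values within each genotype were close, at 97.7 ± 7.90 and 801 ± 64.6. Its log2 fold change was 3.02 (SE 0.11, adjusted p = 4.17e-07).

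**Figure D2:**
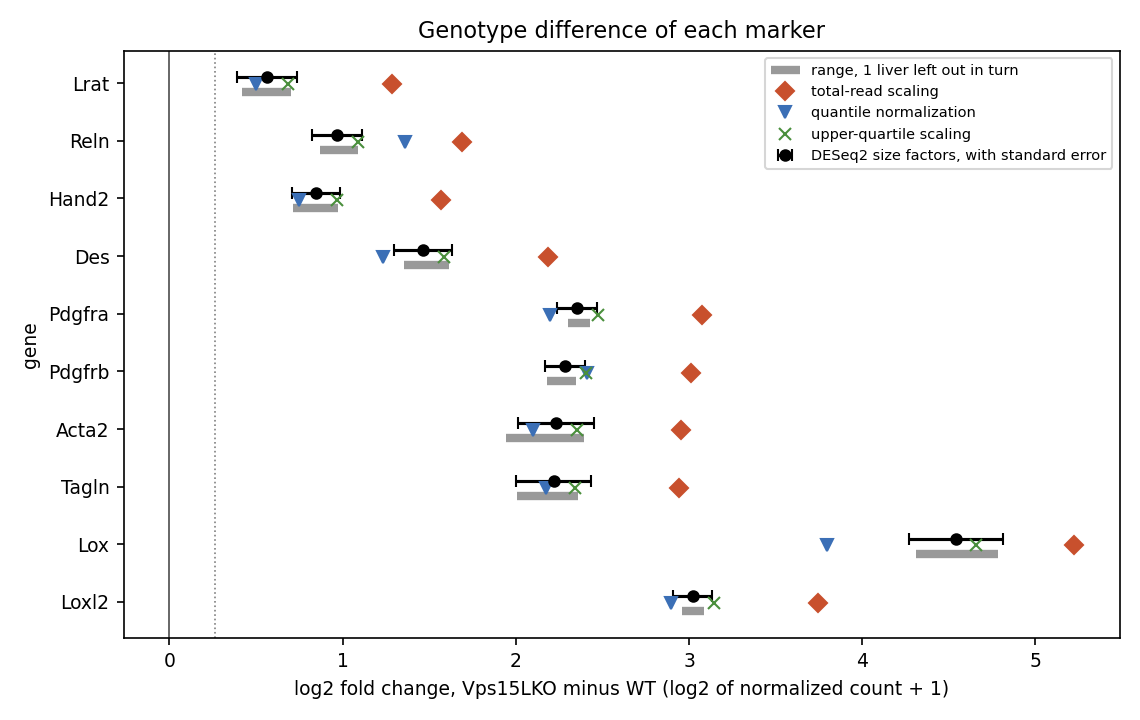
Log2 fold change (Vps15LKO minus WT) of each marker with DESeq2 size factors (black, bars are the standard error), after total-read scaling, quantile normalization and upper-quartile scaling, and the range with 1 liver left out in turn (grey). The dotted line is the fold of 1.2, and every value lies to its right, from 0.42 for Lrat without Vps15LKO replicate 2 to 5.23 for Lox at equal totals of reads.

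Whether the markers rose by the same factor was read from the ratio of 2 markers within each liver, which is free of the size factor apart from the part played by the pseudocount. The log2 ratio of Acta2 to Lrat was −1.26, −1.53 and −0.90 in WT livers and 0.12, −0.09 and 1.29 in Vps15LKO livers. All Vps15LKO livers were above all WT livers, by 1.67 on average (SE 0.47). The same separation was found for Pdgfrb to Lrat, with a difference of 1.72 (SE 0.31), for Lox to Lrat, with 3.98 (SE 0.37), for Des to Lrat, with 0.90 (SE 0.30), and for Reln to Lrat, with 0.40 (SE 0.15). Tagln to Des was higher by 0.76 (SE 0.27) without overlap, and the ratio of Loxl2 to Lox was lower in every Vps15LKO liver, by −1.52 (SE 0.32). Both ratios with Lox rest on its few WT reads, given above, and at a pseudocount of 10 the differences were 3.14 for Lox to Lrat and −0.78 for Loxl2 to Lox. Each of these 7 differences had an exact permutation p of 0.1, the smallest this design allows.

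In 3 of the 10 ratios the genotypes overlapped. Pdgfrb to Pdgfra was 1.40 ± 0.19 in WT and 1.33 ± 0.15 in Vps15LKO livers, a difference of −0.07 (SE 0.14, exact permutation p = 0.6). Acta2 to Tagln differed by 0.01 (SE 0.21, exact permutation p = 0.9). Hand2 to Lrat differed by 0.28 (SE 0.33, exact permutation p = 0.5). With 3 livers in each genotype these values do not show that the ratios were equal.

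**Figure D3:**
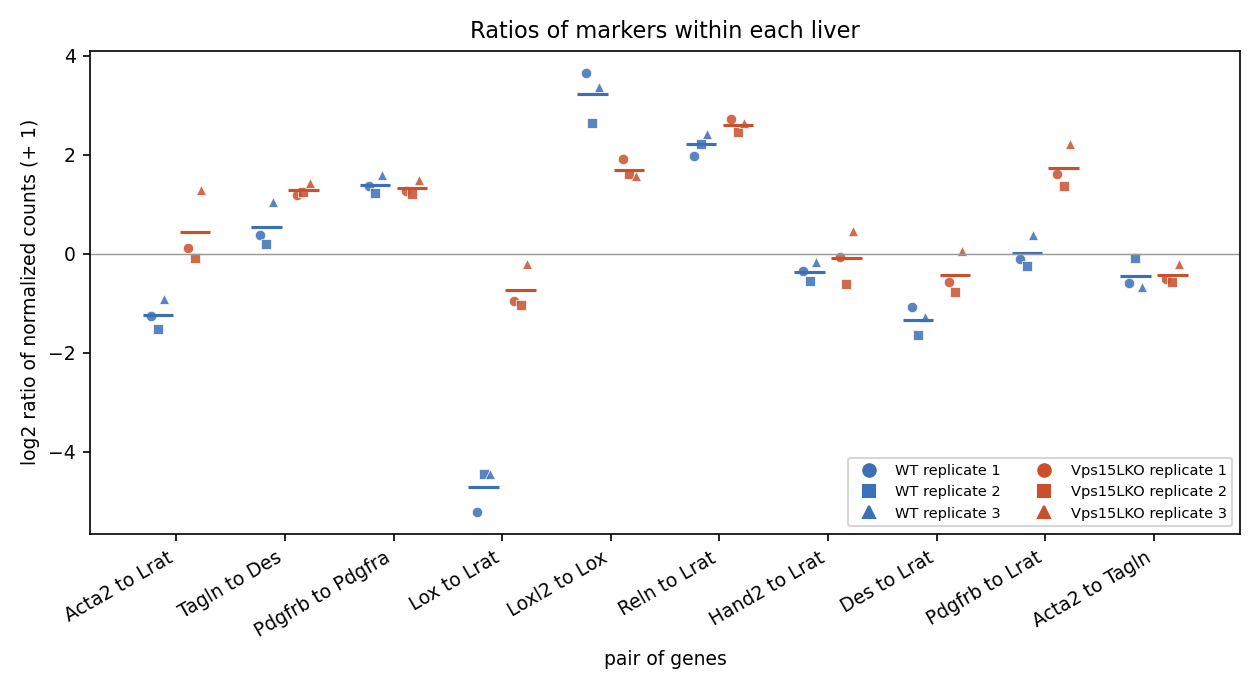
Log2 ratio of the normalized counts (+ 1) of 2 markers within each liver, WT in blue and Vps15LKO in red, with a bar at the mean of each genotype (n = 3). Acta2 to Lrat goes from a mean of −1.23 to 0.44 without overlap, while Pdgfrb to Pdgfra, at 1.40 and 1.33, and Acta2 to Tagln, at −0.44 and −0.43, overlap.

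Levels can be compared between genes only per length, here as normalized counts per kilobase of exon. In WT liver the highest level was that of Hand2 (91.0 ± 4.37), followed by Tagln (81.4 ± 19.8), Reln (54.1 ± 8.38), Acta2 (53.0 ± 2.31), Lrat (51.8 ± 8.85) and Pdgfrb (50.5 ± 3.14). The ranges of each of these neighbours overlapped. Des (29.2 ± 5.71), Loxl2 (18.1 ± 1.46), Pdgfra (10.4 ± 1.01) and Lox (2.08 ± 0.75) followed, each below the range of the one before. In Vps15LKO liver the order was Tagln (379 ± 86.8), Acta2 (261 ± 97.3), Pdgfrb (248 ± 32.7), Hand2 (166 ± 29.7), Loxl2 (148 ± 12.0), Reln (105 ± 14.7), Des (80.6 ± 10.9), Lrat (76.7 ± 14.9), Pdgfra (53.6 ± 2.53) and Lox (51.7 ± 9.04). Only the steps from Pdgfrb to Hand2, from Loxl2 to Reln and from Lrat to Pdgfra were clear of overlap among these neighbours.

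Within the Vps15LKO group, replicate 3 was the highest liver for 8 of the 10 markers and the lowest for the other 2, Lrat and Reln. Over all tested genes it was the highest of the 3 in 35.0% and the lowest in 41.2%. Replicate 1 was the highest for 0 of the 10 and the lowest for 6, beside 23.5% and 28.1% of all tested genes. Replicate 3 was also the highest of the Vps15LKO livers in Spp1, a secreted protein abundant in bile duct cells, at 20496 normalized counts against 13401 and 10402 in replicates 1 and 2. It was the lowest in Tat, a hepatocyte enzyme, at 3531 against 4474 and 5619. The part of these differences between livers in the markers was not tested.

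Across the 6 livers, 2 markers were compared by the root mean square difference between their profiles of log2 values, each less its WT mean. The nearest pairs were Pdgfra and Pdgfrb (0.15), Pdgfrb and Acta2 (0.19) and Acta2 and Tagln (0.21), and the farthest were Lrat and Lox (2.84). By the same measure, among 11930 protein-coding genes whose mean reached 20 normalized counts in both genotypes, Slc35f5 (0.10), Zfat (0.11) and Zfp455 (0.12) were nearest to Lrat. Sh3bp1 (0.043), Fxyd5 (0.055) and Ankrd13b (0.060) were nearest to Pdgfrb, and Nlgn2 (0.095), Wtip (0.11) and Art4 (0.12) to Acta2. The 6 livers hold 1 contrast, so that likeness is for the most part a fold change of similar size: the log2 fold changes were 0.57 to 0.60 for the first 3 genes, 2.27 to 2.30 for the next and 2.16 to 2.34 for the last.

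Other markers of the resting stellate cell did not share 1 direction. Of 22 genes on this list 21 were tested, and 9 rose, 8 fell and 4 were not called, with a median log2 fold change of 0.23 beside −0.02 for all tested genes, of which 33.5% rose and 33.0% fell. Both directions were thus common among all genes. Cygb, a globin of stellate cells, rose from 251, 289 and 162 in WT livers to 1548, 1365 and 2212 in Vps15LKO livers (log2 fold change 2.88, SE 0.24, adjusted p = 1.65e-05), and Adamtsl2, a matrix glycoprotein, rose with 2.65. Hhip, which binds and restrains Hedgehog ligands, fell from 42.4, 69.9 and 87.6 to 13.0, 17.0 and 11.3 (−2.15, SE 0.31, adjusted p = 0.000337). Hhip passed the filter through WT livers alone and had to differ to be tested. Angptl6, a secreted angiopoietin-like protein, fell with −1.41. The 4 genes not called, Gdf2, Lhx2, Pth1r and Rspo3, had log2 fold changes of 0.23, 0.11, 0.03 and 0.23, and were called higher at equal totals of reads. Gfap, the glial filament of some stellate cells, was too low to be tested, at 6.63, 12.5 and 6.74 in WT livers and 10.7, 10.5 and 14.1 in Vps15LKO livers. At equal totals of reads 13 genes of this list were called higher and 3 lower, beside 66.7% of all tested genes called higher at that scaling.

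The genes that handle vitamin A were also split. Of 12 tested genes of 14, 5 rose and 7 fell, with a median log2 fold change of −0.40, beside the same shares over all tested genes. At equal totals of reads 6 were called higher and 3 lower, where 66.7% of all tested genes were called higher. Bco1, the enzyme that cleaves carotene to retinal, had 152, 155 and 208 normalized counts in WT livers and 416, 343 and 462 in Vps15LKO livers (log2 fold change 1.24, SE 0.16, adjusted p = 0.000183). The genotypes did not overlap. The retinal dehydrogenases Aldh1a2 (3.16) and Aldh1a3 (1.68) and the retinoic acid receptors Rarg (1.0) and Rarb (0.50) rose too. Aldh1a2 and Aldh1a3 passed the filter through the Vps15LKO livers alone, and Aldh1a2 had 1.83 at a pseudocount of 10. After quantile normalization Aldh1a3 (0.77) and Rarb (0.045) were not called.

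Rbp4, the carrier that exports retinol from hepatocytes, fell from 64171, 51979.9 and 51445 to 15718, 19012 and 15088 (log2 fold change −1.75, SE 0.20, adjusted p = 8.47e-05). The dehydrogenase Aldh1a1 (−1.59), the retinoic acid hydroxylase Cyp26b1 (−1.17) and the retinal reductase Dhrs3 (−1.11) fell as well. At equal totals of reads Rbp4 had −1.02, Aldh1a1 −0.86 and Dhrs3 −0.38, and after quantile normalization −0.43, −0.57 and −0.66. Rdh10, which oxidizes retinol (−0.63), Dgat1, which can also esterify retinol (−0.46), and the receptor Rara (−0.35) fell with the DESeq2 size factors, but had values above 0 at equal totals of reads. Cyp26b1 was 206, 192 and 66.1 in WT livers and 55.7, 70.5 and 57.3 in Vps15LKO livers, so that the genotypes overlapped at WT replicate 3 and the fall was no longer called without WT replicate 1 (−0.88), WT replicate 2 (−0.93), Vps15LKO replicate 1 (−1.10) or Vps15LKO replicate 3 (−1.12), or at equal totals of reads (−0.45). Rara was called higher at equal totals of reads (0.37), and lost its call with upper-quartile scaling (−0.23), with quantile normalization (−0.26), or without WT replicate 1 (−0.30), WT replicate 2 (−0.30) or Vps15LKO replicate 1 (−0.32), and Rarb without Vps15LKO replicate 2 (0.43). Cyp26a1, the liver's other retinoic acid hydroxylase, had 268, 139 and 14.8 in WT livers and 4.58, 8.10 and 6.37 in Vps15LKO livers and was not tested. With no filter on low values, 8 genes of the vitamin A list were called lower, against 7 with it. Stra6, a retinol uptake receptor, was at 0 in 5 of the 6 livers.

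The receptors and adaptor through which Reelin signals, Vldlr, Lrp8 and Dab1, were called higher, 3 of 3 tested, beside 33.5% of all tested genes. Lrp8 had 2.65, 2.50 and 1.35 normalized counts in WT livers, 5 reads in all, and 226, 174 and 184 in Vps15LKO livers, 771 reads in all. The pooled reads over the summed size factors gave a ratio of 89.5, with an interval of 38.2 to 276 at 95% confidence that covers counting error only. Dab1 had 1.33, 4.996 and 9.44 in WT livers and 66.4, 45.4 and 83.5 in Vps15LKO livers (log2 fold change 3.61, SE 0.53, adjusted p = 0.000379). Lrp8 and Dab1 passed the filter through the Vps15LKO livers alone and had to be higher there to be tested. With 20 normalized counts required in every liver, 1 of the 3 was called higher. Dab1 had a log2 fold change of 2.30 at a pseudocount of 10. Vldlr had 113, 106 and 41.8 in WT livers and 263, 118 and 222 in Vps15LKO livers. Its rise (1.25, SE 0.41, adjusted p = 0.0251) was no longer called without WT replicate 3 (0.79), without Vps15LKO replicate 1 (1.02), without Vps15LKO replicate 3 (1.14) or after quantile normalization (0.90).

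All 4 PDGF ligands were called higher, as were the receptors Pdgfra and Pdgfrb, beside 33.5% of all tested genes. Pdgfb, which encodes a ligand of the beta receptor, had 29.2, 49.96 and 31.0 normalized counts in WT livers and 419, 387 and 560.2 in Vps15LKO livers (log2 fold change 3.62, SE 0.23, adjusted p = 4.69e-06). All Vps15LKO livers lay far above all WT livers. The log2 fold changes of Pdgfa, Pdgfc and Pdgfd were 1.51, 2.14 and 1.54.

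Among 10 other genes of the contractile cytoskeleton, 6 of the 8 tested rose, with a median log2 fold change of 1.63. This count, like those of the matrix, lysyl oxidase and cell type lists that follow, stands beside 33.5% of all tested genes called higher and 33.0% called lower. Vim, the filament protein vimentin of mesenchymal cells, went from 464, 496 and 532 in WT livers to 3084, 2856 and 4159 in Vps15LKO livers (2.74, SE 0.14, adjusted p = 1.81e-06). The tropomyosin Tpm1 rose with 2.33, while Tpm2 (−0.36) and Cald1 (0.11) were not called. Tpm2 was called lower after quantile normalization (−0.85), and Cald1 was called higher there (0.94) and at equal totals of reads (0.84). Cnn1 and Actg2, both markers of mature smooth muscle, were too low to be tested, at most 10.6 and 23.5 normalized counts in any liver.

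Matrix genes rose steeply. Of 15 genes of the matrix and of the activated cell 14 were tested, 13 rose and Fn1 was not called (−0.36), with a median log2 fold change of 3.29. Col1a1, a chain of type I collagen, had 229, 251 and 419 normalized counts in WT livers and 5233, 5804 and 7342 in Vps15LKO livers (4.39, SE 0.22, adjusted p = 1.61e-06). Timp1, an inhibitor of matrix metalloproteinases, had 6 reads over the WT livers and 691 over the Vps15LKO livers, a ratio of 66.8 after division by the summed size factors, with a counting interval of 30.5 to 183. It passed the filter through Vps15LKO livers alone and had to differ to be tested. Fn1, fibronectin, is made by hepatocytes in large amounts and had a log2 fold change of 1.06 after quantile normalization.

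The other lysyl oxidases rose with Lox and Loxl2. Loxl1 had 71.6, 72.4 and 95.7 normalized counts in WT livers and 703, 754 and 945 in Vps15LKO livers (log2 fold change 3.31, SE 0.16, adjusted p = 1.26e-06), without overlap. Loxl4 rose with 1.90 and Loxl3 with 0.87. Of the 14 other lysyl oxidases and collagen-modifying enzymes 13 were tested, 9 rose, 2 fell and 2 were not called, with a median of 1.06. Plod2, a lysyl hydroxylase of collagen, rose with 3.13 (2.50 at a pseudocount of 10) and passed the filter through the Vps15LKO livers alone, while Plod1 (0.13) and P4ha2 (0.32) were not called. Both were called higher at equal totals of reads (0.86 and 1.04), as was Plod1 after quantile normalization (0.39) and P4ha2 without Vps15LKO replicate 2 (0.54). The falls of P4hb (−0.67) and Bmp1 (−0.60), enzymes of procollagen folding and trimming, became values of 0.053 and 0.12 at equal totals of reads.

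Several of the 10 markers are shared with other cells of the liver, whose own markers were therefore read in the same livers. Of 8 markers of vascular smooth muscle and pericytes 7 were tested and 6 rose, with Mcam at 2.23 and Notch3 at 2.14. Their summed normalized counts were 1786 to 2116 in WT and 2792 to 3200 in Vps15LKO livers. Of these, Mylk, which was not called, had 1538 in WT and 1350 in Vps15LKO livers on average. Myh11, the myosin that defines mature smooth muscle, was 50.4, 86.2 and 78.2 in WT livers and 93.2, 118 and 149 in Vps15LKO livers (log2 fold change 0.74, SE 0.25, adjusted p = 0.0255), a rise no longer called without WT replicate 1 (0.51), Vps15LKO replicate 2 (0.75) or Vps15LKO replicate 3 (0.58). Lmod1, another smooth muscle marker, passed the filter through Vps15LKO livers alone and had 0.85. It was not called with no filter on low values (adjusted p = 0.0682), with DESeq2 (0.0555) or voom (0.0510), or without WT replicate 2 or 3 or Vps15LKO replicate 1 or 3 (log2 fold change 0.60 to 0.98), and turned to −0.36 after quantile normalization, where 3 of the list were called higher. Mylk (−0.18) was not called, but was called lower without WT replicate 1 (−0.28) and higher at equal totals of reads (0.54), and Pln was too low to be tested.

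Of 9 portal fibroblast markers 8 were tested and these 8 rose, of which 2, Clec3b and Pi16, passed the filter through Vps15LKO livers alone. The markers that rose included Eln, which encodes elastin (3.84), and Entpd2, an ectonucleotidase of portal fibroblasts (3.24). The sums of this list were 406 to 611 in WT and 3502 to 4890 in Vps15LKO livers. Of 6 mesothelial markers 0 of the 4 tested were called with limma, 0 with edgeR and 0 with DESeq2, and 0 had an unadjusted p under 0.05 with limma. Their sums were 225 to 260 in WT and 207 to 278 in Vps15LKO livers. At equal totals of reads 2 of the 4 were called higher, beside 66.7% of all tested genes, after quantile normalization 2 were called lower, and with no filter on low values 1 of the list was called higher.

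The markers of bile duct cells rose, 6 of 6, with Cftr at 5.66 and Spp1 at 4.69. Cftr had no WT liver at 20 normalized counts, so that it had to be higher in Vps15LKO liver to be tested, and its log2 fold change was 3.94 at a pseudocount of 10. With 20 normalized counts required in every liver, 3 of this list were called higher. The sums of this list were 663 to 790 in WT and 11583 to 22670 in Vps15LKO livers. Spp1 made up most of these sums, at 551 in WT and 14767 in Vps15LKO livers on average. The keratins Krt19 and Krt7 rose less, with 2.11 and 2.22. Of 6 macrophage markers 4 rose, Cd68 with 3.15 and Adgre1 with 1.46, with sums of 3764 to 4414 and 10115 to 12226. Clec4f (0.40) and Timd4 (−0.62), both markers of resident Kupffer cells, were not called, and after quantile normalization Clec4f was called higher (0.76) and Timd4 lower (−0.97). Of 9 endothelial markers 4 rose, Lyve1 (0.95) and Vwf (0.77) among them, and 5 fell, among them Oit3 (−1.02) and Kdr (−0.92), beside 33.5% and 33.0% of all tested genes, with sums of 8300 to 9117 and 6560 to 8556. The count of 5 fell to 2 or 3 when any liver but Vps15LKO replicate 2 was left out, and at equal totals of reads 6 of the endothelial markers were called higher, beside 66.7% of all tested genes, and Oit3 and Kdr were not called. Of 8 hepatocyte markers 7 fell, most of all Tat (−2.65), with sums of 2604840 to 3081618 in WT and 788212 to 1210486 in Vps15LKO livers. Alb, which made up most of these sums, was the 1 not called (−1.48, SE 1.38, adjusted p = 0.366). All its Vps15LKO livers lay below all its WT livers. After quantile normalization 4 of the 8 were called lower, and the median log2 fold change went from −1.67 to −0.46. No marker of these 7 lists was at 0 in all 6 livers. The part of smooth muscle, portal fibroblasts and the other cells in the rise of the 10 stellate cell markers was not tested.

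**Figure D4:**
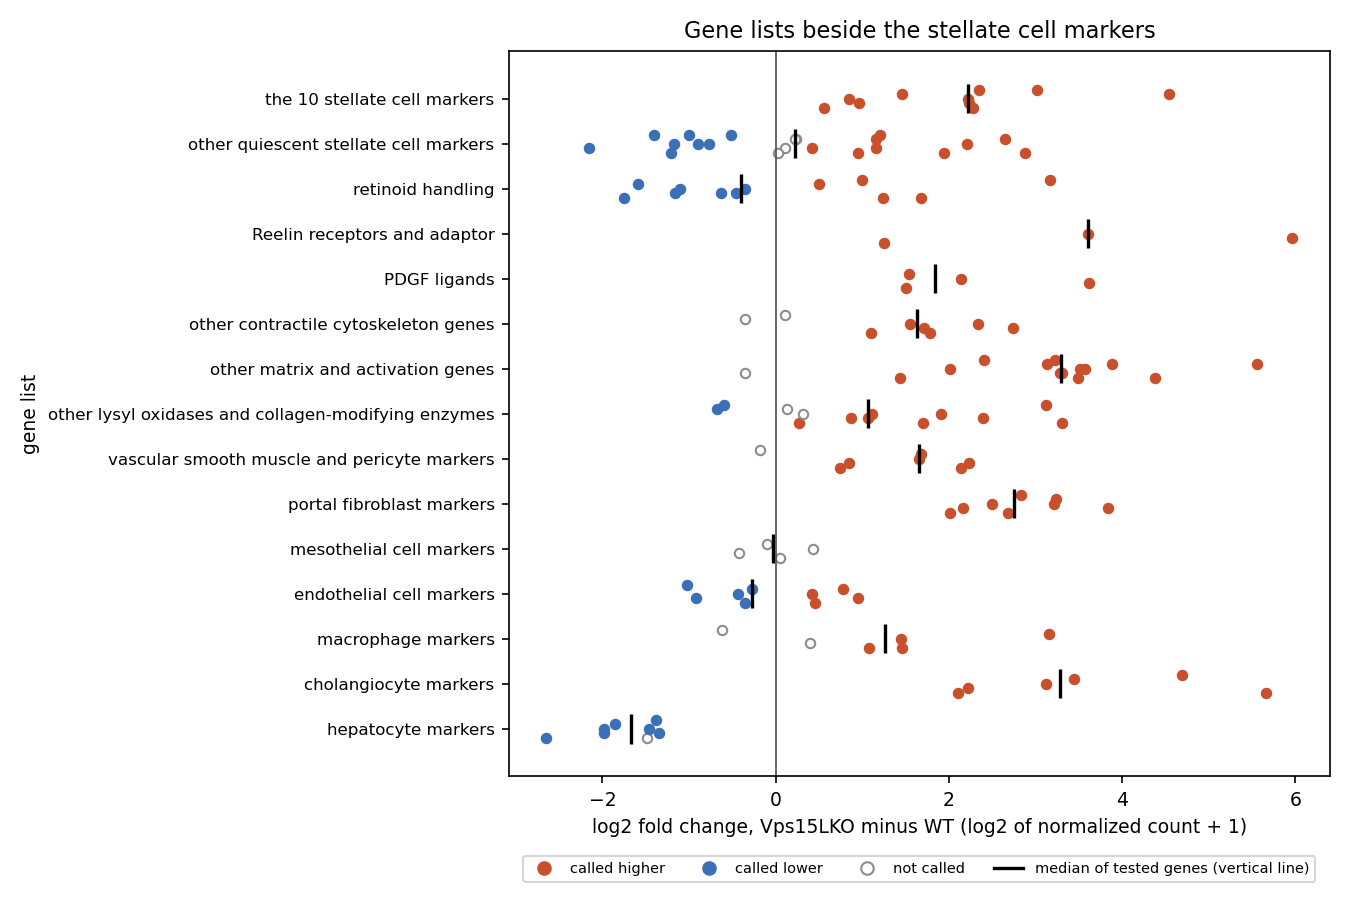
Log2 fold change (Vps15LKO minus WT) of the tested genes of each list, 1 circle per gene, red for called higher, blue for called lower and open for not called, with a vertical line at the median. The 10 markers all lie above 0, while the other quiescent stellate cell markers and the retinoid genes lie on both sides of 0, with medians of 0.23 and −0.40.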

How the data were processed

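Liver RNA of 3 WT and 3 Vps15LKO males was enriched for polyA, made into libraries with a dUTP-marked second strand and sequenced by the authors, who cleaned the reads (SOAPnuke), aligned them to GRCm38 (HISAT2) and assigned them to genes (featureCounts). What was deposited is a signal: reads of each gene over the DESeq2 size factor of its library. Versions, the strand setting and the treatment of reads shared by genes are not given in the sources used here. Within 0.1 reads, 100% of values above 0 were multiples of a single read, which gave the whole reads back. The deposited table had 0 columns outside the 6 livers.

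Genes reaching 20 normalized counts in 3 or more of the 6 livers (15430 of 56305) were compared on log2(normalized count + 1) with limma 3.58.1 (with a trend) in R 4.3.3 and Benjamini-Hochberg adjustment. The count test, edgeR 4.0.16 on the recovered reads, called 10205 genes. The script was tested on simulated data. Single values and ratios were compared by two-sided exact permutation over livers. GENCODE release M21 gave positions and exon lengths for 55227 genes, and all 144 genes of the lists were matched. Counting intervals and the 3-read floor cover counting error only. The paper says that breeding aimed at both genotypes within a litter, but the labels tie no liver to a litter. The limma p-values set the genotype difference against the spread between these mice, estimated with help from all tested genes.

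The 10 genes and the gene lists were chosen with earlier results of these data known. All 14 genes of the retinoid list as used here (a further gene, taken out of it, is not reported here), all of the Reelin and PDGF lists and the lysyl oxidases were named, and from each other list up to 2 genes with the largest change each way. Genes named because they were not called, too low to be tested or dependent on 1 setting, Hand2os1, Gm48529, Clec3b, Pi16, Clec4f, Timd4, Gfap, Myh11, Lmod1, Mylk, Pln, Cnn1, Actg2, Fn1, Tpm2, Cald1, Plod1, P4ha2, Gdf2, Lhx2, Pth1r, Rspo3 and Alb among them, were chosen after their values were seen. So were Krt19, Krt7 and the Reln promoter.

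Alternatives were pseudocounts of 0.1 and 10, 2 other filters, total-read, TMM, upper-quartile and quantile scaling, limma without a trend, edgeR, DESeq2 1.42.0 and voom on recovered reads, a fold of at least 2, an adjusted p under 0.01, a replicate block and each liver left out in turn. Figures were drawn with matplotlib 3.10.9.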

Additional observations from a re-analysis of the deposited data

How the results depend on the processing

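The 10 markers were called higher under 15 of 21 alternatives, among them every scaling tried, edgeR, DESeq2 and voom. Lox could not be tested at 20 or more normalized counts in every liver, Lrat was lost at an adjusted p under 0.01 and without WT replicate 3, Vps15LKO replicate 1 or Vps15LKO replicate 2, and Lrat, Reln and Hand2 were lost at a fold of at least 2. Des, Pdgfra, Pdgfrb, Acta2, Tagln and Loxl2 kept their call and direction under all 21 and Lox under the 20 that gave it a value. Over the alternatives the log2 fold change of Lrat was 0.42 to 1.29 (adjusted p 3.52e-05 to 0.0618), that of Acta2 1.95 to 2.96 and that of Lox 3.69 to 5.23.

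Over all tested genes, total-read scaling called 10299 higher and 1712 lower (85.7% of calls higher, against 50.3%), and a fold of at least 2 left 3228 and 1957. Total-read scaling turned Rdh10 to 0.10, Rara to 0.37, Dgat1 to 0.27, P4hb to 0.053, Bmp1 to 0.12 and Mylk to 0.54. Fn1 was called lower with DESeq2 (−0.36) and Gdf2 higher with edgeR (0.28). Quantile normalization turned Fn1 to 1.06, P4hb to 0.53 and Lmod1 to −0.36. A pseudocount of 10 moved the difference in the log2 ratio of Lox to Lrat to 3.14 and that of Loxl2 to Lox to −0.78, since Lox had at most 13.7 normalized counts in WT liver.

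Livers of the same number did not deviate together (r −0.01, −0.01 and 0.05 over genes), so the numbers were not taken as pairs. With the replicate number as a block, the 10 markers were all called higher, and 5065 genes were called higher and 4983 lower, while Lmod1 lost its call (adjusted p = 0.0682). With 5 to 11 reads per WT library for Lox, its WT level is the least certain of the 10.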
